A study of Mus musculus with 1 sample.

Results

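Immediate early genes were followed across the germ and somatic cells of the mouse testis in 1 single-cell RNA-seq library. The set holds 10 genes, Fos, Fosb, Jun, Junb, Jund, Atf3, Egr1, Egr4, Ier2 and Btg2, of the 27998 genes listed in the count matrix. They were taken by symbol, with earlier results of these data known. All 10 had UMIs (unique molecular identifiers, each standing for 1 captured RNA molecule). The study asked how the transcription factor ZSCAN2 acts in spermatogonia. The library analysed here came from Wild-type C57BL/6 mice at postnatal day 8, 3 animals pooled in equal numbers into 1 tube. THY1+ cells had been collected on magnetic beads to enrich undifferentiated spermatogonia, and some unselected testis cells were added back, so the shares of cell types follow from that mixture. The Zscan2-KO library was not analysed here. All animals were put into suspension in the same way before capture, so no sample without dissociation stands beside them. The counts do not tell bead-selected cells from the unselected cells added back, and the part of this handling in the levels was not tested. With 1 library there are no replicates and no tests, and every interval is an exact 95% interval that covers counting error only.

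Immediate early genes are transcribed within minutes of a stimulus, from promoters already bound by factors such as SRF and CREB, without new protein having to be made first. FOS and JUN proteins pair to form the AP-1 factor, EGR proteins are zinc finger factors that bind GC-rich sites, ATF3 pairs with JUN proteins, and BTG2 is a coregulator that restrains cell division. Growth factors such as GDNF and FGF2, which spermatogonial stem cells depend on, act through kinase cascades that feed these promoters. Enzymatic digestion of tissue is also known to switch the same genes on. Which of these stimuli the levels in these cells answer to was not tested.

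Promoter sequences of RefSeq (GRCm38.p6, 250 bases before to 50 after the annotated start) were found for 8 members. Shown are Egr4, the member of germ cells, beside Fos, Junb and Btg2, members that were higher in somatic cells. Capitals mark TGACG on either strand, the core of the cyclic AMP response element (CRE, in full TGACGTCA, which holds the core), and TATAA on the gene's strand. The windows are chr6:85513540-85513839 on the minus strand for Egr4, chr12:85473640-85473939 on the plus strand for Fos, chr8:84978699-84978998 on the minus strand for Junb and chr1:134079106-134079405 on the minus strand for Btg2.
Egr4: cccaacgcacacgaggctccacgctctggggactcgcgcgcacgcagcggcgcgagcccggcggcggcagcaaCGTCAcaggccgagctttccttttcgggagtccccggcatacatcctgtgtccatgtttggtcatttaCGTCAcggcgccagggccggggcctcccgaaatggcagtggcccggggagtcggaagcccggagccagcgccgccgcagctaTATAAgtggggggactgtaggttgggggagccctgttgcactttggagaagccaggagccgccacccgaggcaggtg
Fos: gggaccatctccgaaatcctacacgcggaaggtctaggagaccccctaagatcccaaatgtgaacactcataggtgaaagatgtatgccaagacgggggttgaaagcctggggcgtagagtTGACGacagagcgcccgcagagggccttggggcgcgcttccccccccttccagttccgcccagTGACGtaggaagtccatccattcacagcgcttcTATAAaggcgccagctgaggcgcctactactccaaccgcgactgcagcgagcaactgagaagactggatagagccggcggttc
Junb: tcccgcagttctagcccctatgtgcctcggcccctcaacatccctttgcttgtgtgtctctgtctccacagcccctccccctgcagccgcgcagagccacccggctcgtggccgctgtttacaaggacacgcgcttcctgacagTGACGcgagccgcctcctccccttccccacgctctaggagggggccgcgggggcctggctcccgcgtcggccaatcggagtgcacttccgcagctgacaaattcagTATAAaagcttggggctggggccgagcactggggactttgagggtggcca
Btg2: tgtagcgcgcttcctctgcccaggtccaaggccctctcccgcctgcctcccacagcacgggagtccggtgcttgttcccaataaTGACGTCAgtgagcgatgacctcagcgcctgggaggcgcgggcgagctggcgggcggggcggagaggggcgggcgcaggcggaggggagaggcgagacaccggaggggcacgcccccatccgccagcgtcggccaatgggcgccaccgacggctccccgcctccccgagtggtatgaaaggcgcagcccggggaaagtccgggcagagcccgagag

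The CRE core was present in 6 of the 8 member promoters (Btg2, Atf3, Egr4, Fosb, Junb and Fos), and in 20.8% of all 32851 promoters of this length. Egr4 and Fos each had 2 cores, those of Egr4 starting 109 and 177 bases and those of Fos 66 and 129 bases upstream of the start. Btg2 alone had the full CRE, 166 bases upstream, a sequence found in 1.79% of all promoters. TATAA was found in 3 of 8, in Egr4, Junb and Fos, against 17.5% of all promoters. It began 27 bases upstream of the start in Egr4 and 33 in Fos, but at the annotated start itself in Junb. The EGR site GCGNGGGCG was found in Btg2 and Fosb (5.55% of all promoters). Neither the AP-1 site TGANTCA (7.81% of all) nor the CArG box of SRF (1.63% of all) was found in these 8 windows, which says nothing of sites outside them. Egr4 thus shared its motifs with members whose levels ran the other way. The RefSeq starts of Atf3 and Fosb lie inside the GENCODE gene and those of Jund, Junb and Btg2 upstream of it, so these windows and their distances depend on the annotation. A motif match is a description of letters, not of binding.

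The 970 barcodes held 11358045 UMIs, and 920 cells were kept, with 2655 to 44915 UMIs each and a median of 9223. Clusters named from marker genes gave 324 germ cells, divided into 133 differentiating-like, 112 SSC-like (for spermatogonial stem cells) and 79 progenitor-like cells. The 596 somatic cells comprised 35 macrophage-like, 94 peritubular myoid-like, 186 stromal-like and 255 Sertoli-like cells. A cluster of 26 cells scored highest for T cell markers, but its leading genes were mixed and it is called the unnamed cluster. Cd3g, a T cell marker, was among its top 10 genes with Xcl1, Gzmc, Klrd1, Ncr1, Gzma, Ctsw, Rgs5 and Higd1b. Hba-a1 and Hbb-bs, which encode hemoglobin chains, led the progenitor-like cluster ahead of Neurog3, but 1 barcode held 3604 of its 3632 Hba-a1 UMIs, and without that barcode Neurog3 led and 0 red blood cell markers were among the top 10. The ratios of SSC-like to progenitor-like cells are given below also without it. Depth differed by class, with a median of 22293 UMIs per cell in SSC-like, 10878 in differentiating-like, 8343 in Sertoli-like and 7446 in peritubular myoid-like cells. Median mitochondrial shares were 7.06% in SSC-like, 6.06% in Sertoli-like and 3.14% in peritubular myoid-like cells. Levels are given as CPM, the UMIs of a gene summed over a class per 1000000 UMIs of that class, and they were compared for each gene between classes, not between genes. Several members were among the genes used for clustering, namely Fos, Fosb, Jun, Junb, Egr4, Ier2 and Btg2 for all cells and Jund, Egr1 and Egr4 for germ cells. When these members and the other early and heat shock genes were left out of the clustering, the classes held 133 differentiating-like, 115 SSC-like, 76 progenitor-like, 187 stromal-like and 255 Sertoli-like cells. Ratios obtained that way are given below for the sum in somatic over germ cells and for Egr1 and Egr4 in differentiating-like over undifferentiated cells.

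All but Egr4 had higher levels in somatic than in germ cells. Summed, they reached 1697 CPM in somatic and 456 CPM in germ cells, a log2 ratio of 1.90 (1.83 to 1.96). Of the 9 members with at least 50 UMIs in both compartments together, 7 were at least 2-fold higher in somatic cells, where 26.7% of all 11027 such genes were, and 1, Egr4, was at least 2-fold lower, where 24.0% of all genes were. Jund lay between. The sum in germ cells was to a large part Egr4, with 1222 of its 2532 UMIs, and without Egr4 the log2 ratio of the summed members was 2.85. With the early and heat shock genes left out of the clustering the ratio stayed at 1.90.

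**Figure D1:**
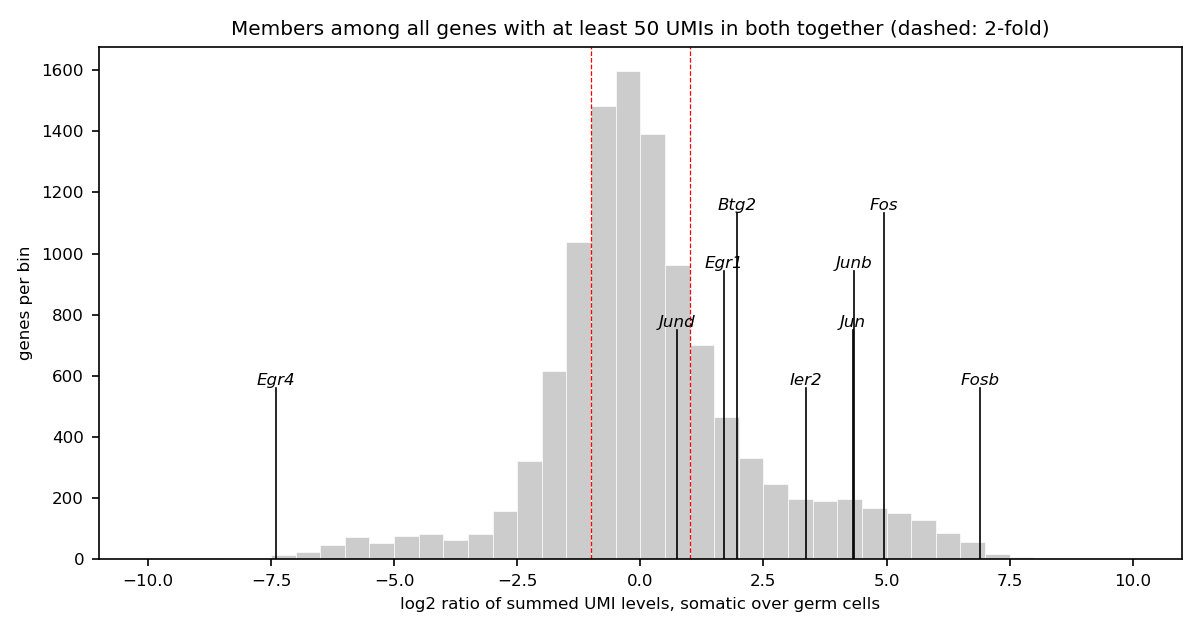
Histogram of the log2 ratio of levels in somatic over germ cells (x axis) for the 11027 genes with at least 50 UMIs in both together (y axis: genes per bin of 0.5), with the 9 tested members as vertical lines and the 2-fold limits dashed. Fosb at 6.90 and Egr4 at -7.40 lie near the 2 ends of all genes, and Jund at 0.75 lies inside the 2-fold limits.

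Fos (ENSMUSG00000021250; chr12:85473890-85477273, plus strand, 4 exons) encodes the inducible partner of JUN in AP-1. Its level was 723 CPM (651 to 800) in macrophage-like, 350 (308 to 395) in peritubular myoid-like, 319 (296 to 343) in Sertoli-like, 281 (256 to 308) in stromal-like and 90.9 (50.9 to 150) in unnamed cells. In germ cells it was 14.7 CPM (10.3 to 20.4) in SSC-like, 10.2 (5.95 to 16.4) in differentiating-like and 6.22 (2.85 to 11.8) in progenitor-like cells. No germ class reached the level of any somatic class, and the somatic over germ log2 ratio was 4.94 (4.58 to 5.33), from 1840 and 62 UMIs. Macrophage-like cells were above the next class by a log2 ratio of 1.05 (0.81 to 1.28), while peritubular myoid-like and Sertoli-like cells were within counting error of each other, as were the SSC-like and differentiating-like classes and the differentiating-like and progenitor-like classes. A Fos UMI was seen in 88.6% of macrophage-like and 25% of SSC-like cells, and in 82.9% and 6.36% after each cell was thinned to 5000 UMIs.

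Fosb (ENSMUSG00000003545; chr7:19302696-19310051, minus strand), a relative of Fos with the same partners, had the largest somatic excess of the members. It stood at 200 CPM (182 to 220) in Sertoli-like, 105 (78.6 to 137) in macrophage-like, 86.4 (66.6 to 110) in peritubular myoid-like, 67.0 (55.1 to 80.8) in stromal-like and 30.3 (9.84 to 70.7) in unnamed cells. Only 6 UMIs were counted in the 324 germ cells, of which 1 was in a differentiating-like, 2 in progenitor-like and 3 in SSC-like cells. Sertoli-like cells led the order by a log2 ratio of 0.94 (0.53 to 1.37) over macrophage-like cells, and macrophage-like, peritubular myoid-like, stromal-like and unnamed cells could not be ordered beyond counting error between neighbours. The somatic over germ log2 ratio was 6.90 (5.77 to 8.35).

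Jun (ENSMUSG00000052684; chr4:95049034-95052222, minus strand, 1 exon, overlapped on the other strand by Junos) and Junb (ENSMUSG00000052837; chr8:84974484-84978718, minus strand, 1 exon, overlapped on the other strand by Prdx2) encode the other arm of AP-1. Jun was equal in peritubular myoid-like and Sertoli-like cells within counting error, both at 344 CPM (303 to 389 and 320 to 369), followed by 233 (193 to 278) in macrophage-like, 183 (163 to 205) in stromal-like and 66.6 (33.3 to 119) in unnamed cells. Its germ levels were 15.9 CPM (11.3 to 21.8) in SSC-like, 13.2 (8.29 to 20.0) in differentiating-like and 11.1 (6.32 to 18.0) in progenitor-like cells, within counting error of each neighbour. Junb had another order. It was highest in peritubular myoid-like cells at 504 CPM (454 to 558), next in the unnamed cluster at 212 (148 to 295), then 121 (104 to 139) in stromal-like, 101 (75.3 to 132) in macrophage-like and 87.6 (75.9 to 101) in Sertoli-like cells. The level of the unnamed cluster rested in part on 1 cell with 12 of its 35 UMIs, and was 144 CPM without that cell. In germ cells Junb was at 11.9 CPM (7.94 to 17.0) in SSC-like, 5.41 (2.47 to 10.3) in differentiating-like and 4.15 (1.52 to 9.03) in progenitor-like cells. The log2 ratios of somatic over germ cells were 4.31 (3.98 to 4.66) for Jun and 4.34 (3.90 to 4.81) for Junb.

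Jund (ENSMUSG00000071076; chr8:70698949-70700616, plus strand, 1 exon), the JUN family member that many resting cells express steadily, differed least between compartments. It was at 197 CPM (180 to 216) in Sertoli-like cells and at 98.2 (82.7 to 116) in progenitor-like, 88.3 (74.5 to 104) in stromal-like, 86.4 (66.6 to 110) in peritubular myoid-like, 72.8 (62.5 to 84.3) in SSC-like, 67.3 (55.4 to 81.0) in differentiating-like, 63.9 (44.0 to 89.8) in macrophage-like and 48.5 (20.9 to 95.5) in unnamed cells. Sertoli-like cells stood above the next class by a log2 ratio of 1.01 (0.73 to 1.29), and no later pair of neighbours in that order differed beyond counting error. The log2 ratio of somatic over germ cells was 0.75 (0.58 to 0.93).

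Atf3 (ENSMUSG00000026628; chr1:191170296-191218039, minus strand, 4 exons), a stress-induced partner of JUN proteins, was the rarest member with 45 UMIs. Of these, 24 lay in the 35 macrophage-like cells, a level of 46.5 CPM (29.8 to 69.2), and 18 in Sertoli-like cells, 7.84 CPM (4.65 to 12.4). Stromal-like cells had 2 UMIs and SSC-like cells 1. None was counted in the progenitor-like, differentiating-like, peritubular myoid-like or unnamed cells, where a count of 0 allows up to 2.07, 1.80, 4.05 and 18.2 CPM. Macrophage-like cells exceeded Sertoli-like cells by a log2 ratio of 2.57 (1.63 to 3.54), on 42 UMIs in all, too few for the count of genes above.

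**Figure D2:**
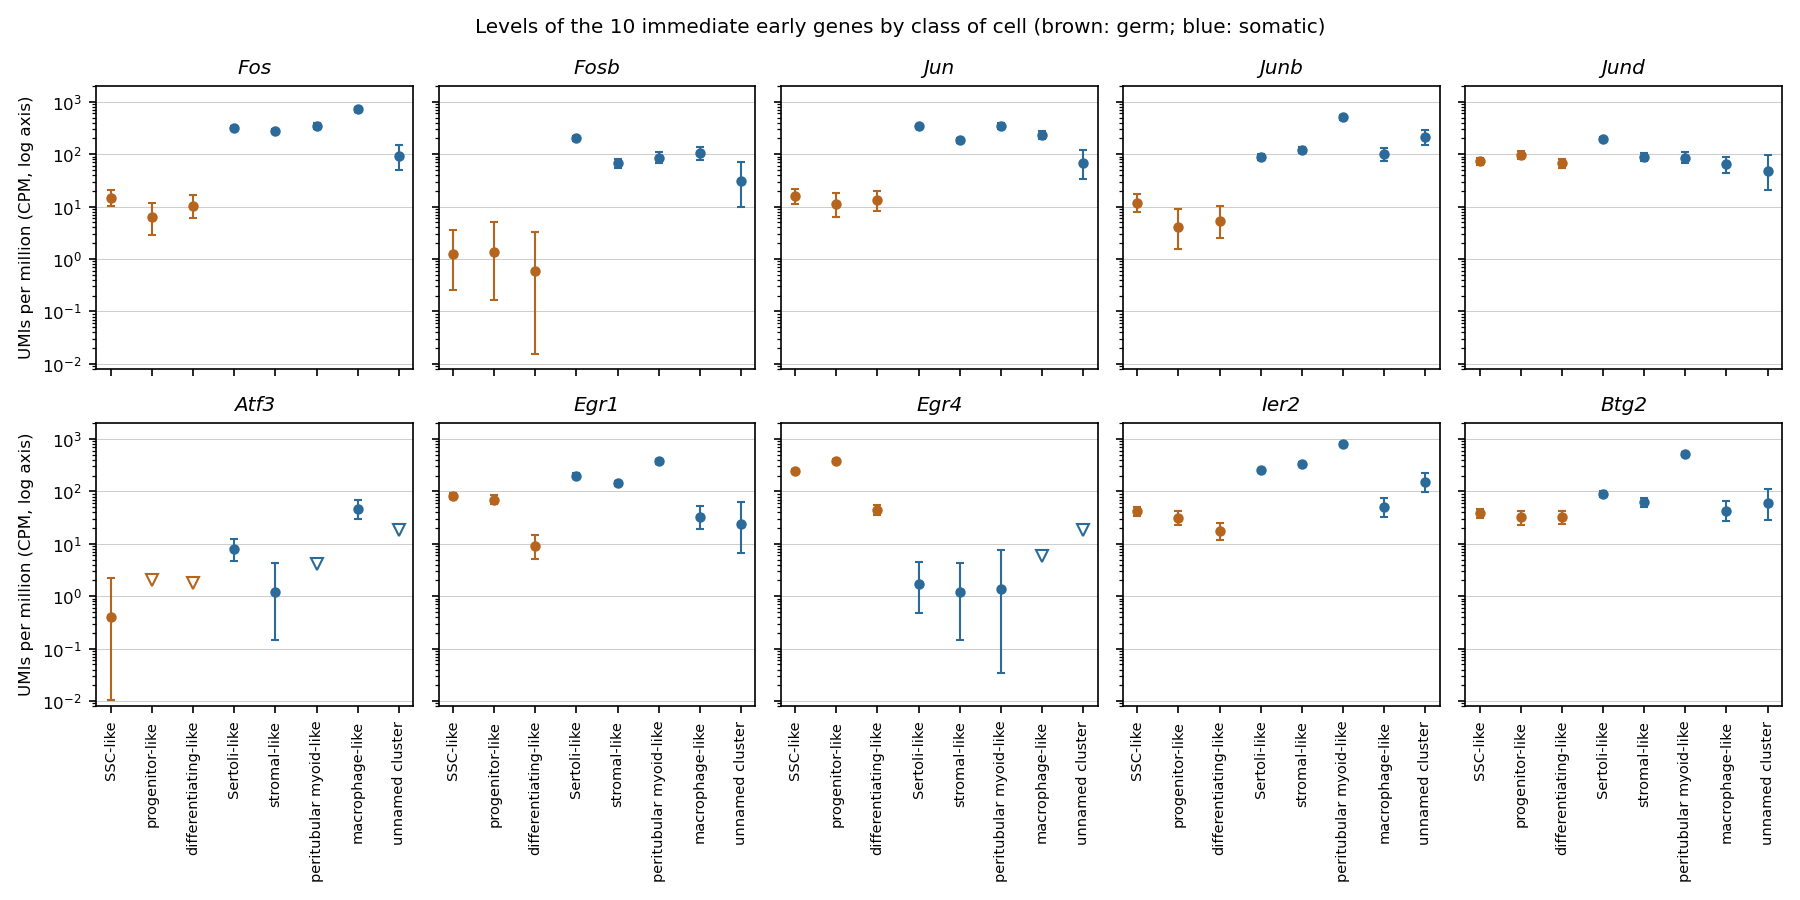
Level of each member (y axis, UMIs per 1000000 on a log axis) in each class of cell (x axis; brown, germ; blue, somatic), as a point with its exact 95% Poisson interval, or as an open triangle at the 3-count limit where no UMI was counted. Egr4 reaches 381 CPM in progenitor-like cells and at most 1.74 CPM in a somatic class, while Fos, Fosb, Jun and Junb are higher in every somatic class than in every germ class.

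The EGR genes did not move together. Egr4 (ENSMUSG00000071341; chr6:85511121-85513589, minus strand, 2 exons) was at 381 CPM (350 to 414) in progenitor-like, 244 (225 to 265) in SSC-like and 44.5 (34.9 to 55.8) in differentiating-like cells. The somatic classes held 7 UMIs of it in 596 cells, 4 in Sertoli-like, 2 in stromal-like and 1 in peritubular myoid-like cells, with 0 in the macrophage-like and unnamed cells, limits of 5.81 and 18.2 CPM. Egr4 was 168-fold higher in germ than in somatic cells (log2 ratio of somatic over germ cells -7.40, -8.71 to -6.35), and every germ class was above every somatic class that had a UMI. A UMI of Egr4 was seen in 30.8% of differentiating-like, 88.6% of progenitor-like and 93.8% of SSC-like cells, and after thinning to 5000 UMIs in 13.4%, 77.8% and 66.4%, against 0.851% of Sertoli-like cells. The order of SSC-like and progenitor-like cells by this share turned on thinning, and no order is read from the unthinned share, which went against the CPM.

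Egr1 (ENSMUSG00000038418; 34859823 to 34864984 on the plus strand of chromosome 18) was found in both compartments. It was at 375 CPM (333 to 422) in peritubular myoid-like, 201 (183 to 220) in Sertoli-like, 142 (124 to 161) in stromal-like, 32.9 (19.2 to 52.7) in macrophage-like and 24.2 (6.60 to 62.1) in unnamed cells. In germ cells it was at 9.02 CPM (5.05 to 14.9) in differentiating-like, 69.8 (56.9 to 84.9) in progenitor-like and 83.0 (72.0 to 95.3) in SSC-like cells. SSC-like and progenitor-like cells, within counting error of each other, therefore lay above macrophage-like cells and below stromal-like cells. The log2 ratio of somatic over germ cells was 1.69 (1.51 to 1.88). Macrophage-like cells, highest for Fos and Atf3, were below Sertoli-like cells for Egr1 by 2.61 on the log2 scale (log2 ratio -2.61, -3.40 to -1.91).

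Ier2 (ENSMUSG00000053560; chr8:84661331-84662852, minus strand, 1 exon), a nuclear protein of the early response, was highest in peritubular myoid-like cells at 793 CPM (730 to 860). It followed at 329 CPM (302 to 358) in stromal-like, 252 (232 to 274) in Sertoli-like, 151 (98.0 to 224) in unnamed and 50.4 (32.9 to 73.8) in macrophage-like cells, with 41.7 (34.0 to 50.6) for the SSC-like class, 31.1 (22.7 to 41.6) for the progenitor-like class and 17.4 (11.7 to 25) for the differentiating-like class. All steps in this order were beyond counting error except those from macrophage-like to SSC-like and from SSC-like to progenitor-like cells. Btg2 (ENSMUSG00000020423; chr1:134075170-134079120, minus strand, 2 exons) stood apart in a single class. It was at 516 CPM (465 to 570) in peritubular myoid-like cells, 90.2 (78.3 to 103) in Sertoli-like, 62.7 (51.2 to 76.1) in stromal-like, 60.6 (29.1 to 111) in unnamed and 42.6 (26.7 to 64.5) in macrophage-like cells, with 38.4 (31.1 to 47.0) for the SSC-like class, 31.9 (23.9 to 41.7) for the differentiating-like class and 31.8 (23.3 to 42.4) for the progenitor-like class. From stromal-like cells downward no pair of neighbours differed beyond counting error. The somatic over germ log2 ratios were 3.37 (3.15 to 3.60) for Ier2 and 1.96 (1.73 to 2.20) for Btg2.

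Free RNA from broken cells gives UMIs to cells that do not express a gene, so the low germ levels were set beside those of genes that mark somatic cells. The 21 markers of Sertoli, stromal and peritubular myoid cells stood in germ cells at 0.174% to 6.70% of their somatic level, with a median of 2.34%, none of them at 0. Fos at 3.25%, Fosb at 0.835%, Jun at 5.04%, Junb at 4.94% and Atf3 at 2.19% lay inside that range, Jun and Junb above 19 of the 21 markers, so that their UMIs in germ cells could not be told apart from free RNA at these levels. Ier2 at 9.66%, Btg2 at 25.7%, Egr1 at 31.0% and Jund at 59.3% lay above all 21 markers. In the other direction, the 6 germ cell markers stood in somatic cells at 1.86% to 9.78% of their germ level, and Egr4, at 0.594%, lay below all 6. The median depths were 18216.5 UMIs per germ and 8193.5 per somatic cell.

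Members with at least 50 UMIs were then compared between germ stages, among them Fos and Jun, whose germ levels lay within the range of the somatic markers. From undifferentiated cells (SSC-like and progenitor-like together) to differentiating-like cells, 3 of 7 members were at least 2-fold lower, where 7.65% of all 8219 genes were, and 0 of 7 were at least 2-fold higher, where 5.65% of all genes were. The 3 were Egr1 (log2 ratio -3.12, -3.97 to -2.37), Egr4 (-2.73, -3.09 to -2.39) and Ier2 (-1.12, -1.74 to -0.53). In differentiating-like cells Egr1 was at 9.02 CPM and Ier2 at 17.4 CPM, against 185 and 328 CPM in somatic cells. Levels were set beside the somatic markers only for all germ cells together. The part of free RNA in these low levels, which would limit the size of both ratios, was not tested. Jund (-0.29, -0.61 to 0.03) and Btg2 (-0.18, -0.66 to 0.29) were within counting error. Summed, all 10 members were at 200 CPM in differentiating-like and 565 CPM in undifferentiated cells, a log2 ratio of -1.50 (-1.67 to -1.34), or -0.80 without Egr4. Egr1 and Egr4 had taken part in the clustering of germ cells, and with the early and heat shock genes left out of it their log2 ratios were -3.14 and -2.62.

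The 133 differentiating-like cells were not uniform. Of these, 51 came from a cluster of low depth, with a median of 4079 UMIs, and Egr4 was at 104 CPM (68.6 to 152) in them, against 33.5 (24.6 to 44.5) in the other 82 cells. That level came from 27 UMIs in 10 cells, 8 of them in 1 cell, and was 76.1 CPM without that cell. Without those 51 cells the log2 ratios to undifferentiated cells were -3.14 for Egr4 and -3.32 for Egr1. The class also joined a cluster of 101 cells, with Kit first and Stra8 also among its top 10 genes, with one of 32 cells led by Prss50 and Ly6k. In the latter Egr4 had 1 UMI (2.46 CPM, 0.0623 to 13.7) against 58.1 CPM (45.5 to 73.0) in the former, Egr1 had none, which allows up to 7.39 CPM, against 11.9 (6.68 to 19.7), and Jund was at 24.6 CPM (11.8 to 45.3) against 81.1 (66.1 to 98.5). The log2 ratios of the smaller over the larger cluster were -4.56 (-9.88 to -2.04) for Egr4 and -1.72 (-2.82 to -0.78) for Jund, and Btg2, at 34.5 CPM (18.8 to 57.8) and 31.0 (22.1 to 42.4), was within counting error. Egr1, Ier2 and Fos held fewer than 50 UMIs in both clusters together. Ier2, with 13 and 16 UMIs, gave a log2 ratio of 1.33 (0.15 to 2.48), and Fos, with 9 and 8 UMIs, one of 1.80 (0.25 to 3.37).

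Between SSC-like and progenitor-like cells no tested member differed by 2-fold. Of 6 members, Jun among them, 0 were at least 2-fold higher in SSC-like cells, where 4.11% of all 7025 genes were, and 0 at least 2-fold lower, where 1.18% were. Egr4 was lower in SSC-like cells by a log2 ratio of -0.64 (-0.81 to -0.47), and Jund by -0.43 (-0.76 to -0.10). Egr4, Jund and Egr1 had taken part in the clustering of germ cells, so their ratios here describe classes formed in part from them. The intervals of Egr1 (0.25, -0.10 to 0.61), Ier2 (0.42, -0.10 to 0.96) and Btg2 (0.27, -0.25 to 0.82) included 0, so differences up to those bounds remain possible. Fos (36 and 9 UMIs; 1.24, 0.16 to 2.48) and Junb (29 and 6 UMIs; 1.52, 0.22 to 3.07) held fewer than 50 UMIs and were not counted. The count of members at least 2-fold higher in SSC-like cells was 3 when germ cells were taken by a UMI of Ddx4 or Dazl. With that selection the SSC-like cluster, of 81 cells, was led by C1qb, Lyz2 and Tyrobp and had 0 SSC markers in its top 10. Lyz2 is a macrophage marker, so values from that selection are not a comparison of germ stages alone. The count was 1 with no limit on mitochondrial UMIs, where a cluster of 62 cells that scored highest for germ cell markers went unnamed and 284 germ cells remained. The share of all genes past 2-fold was not computed for these settings. Without the hemoglobin-rich barcode, left out after the data were seen, the count was 0. The log2 ratios were then -0.65 for Egr4, -0.44 for Jund and -0.29 for the sum. The summed members gave -0.28 (-0.40 to -0.15), which rested on Egr4: without it the log2 ratio was 0.14, with an interval that included 0. The sum also changed sign with the way the classes were cut, to 0.12 at a clustering resolution of 1.2, where a cluster of 84 cells led by Hba-a1, Hbb-bs and Neurog3 went unnamed and 240 germ cells remained, and to 0.06 with the Ddx4 or Dazl selection, where the log2 ratio of Egr4 alone was -0.18 and -0.70.

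**Figure D3:**
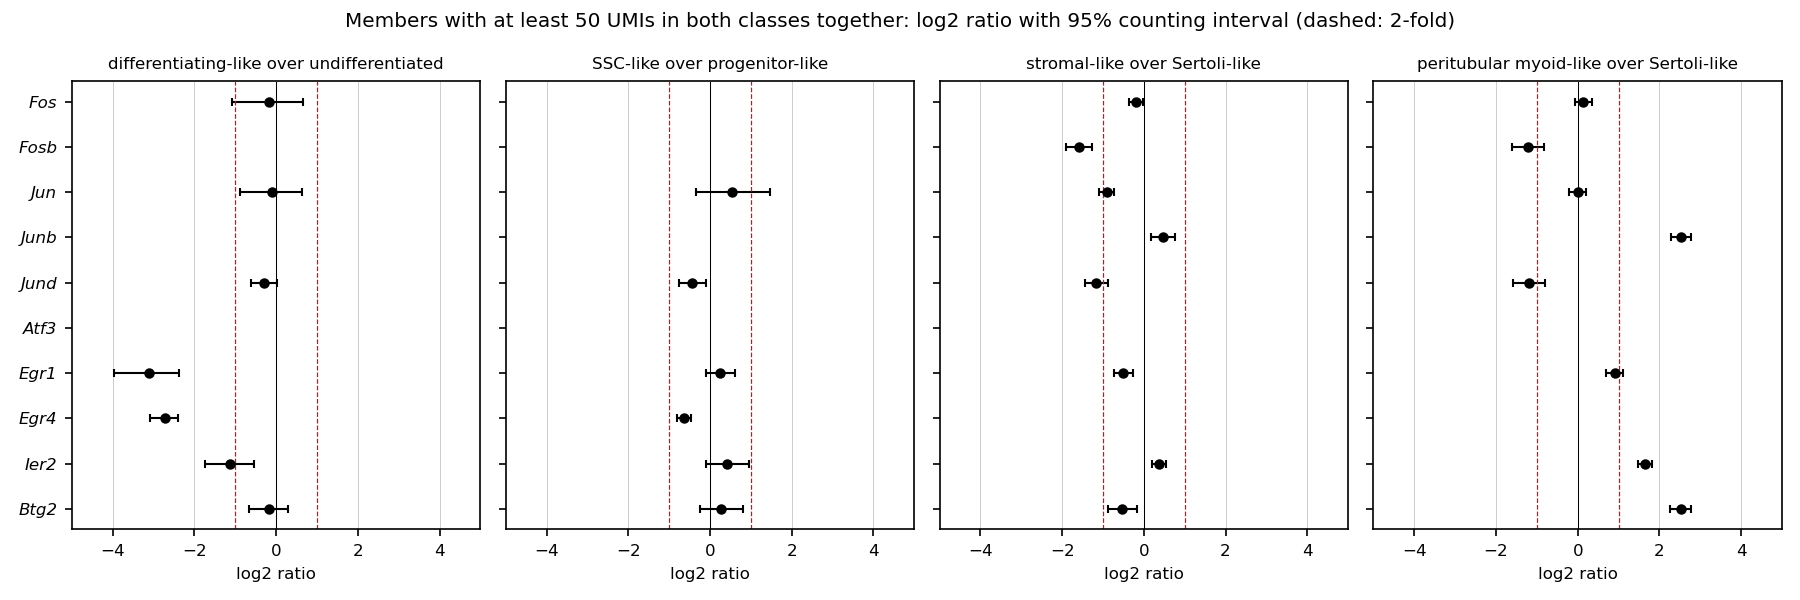
Log2 ratio of the level of each member (x axis) in 4 comparisons of classes, 1 per panel, as a point with its exact 95% counting interval, shown for members (y axis) with at least 50 UMIs in both classes together, the 2-fold limits dashed. Egr1 and Egr4 lie left of the limit in the comparison of differentiating-like with undifferentiated cells, and Junb, Btg2 and Ier2 lie right of it in that of peritubular myoid-like with Sertoli-like cells.

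Among somatic cells, the shift of the members between stromal-like and Sertoli-like cells was near that of all genes. Of 8 tested, 2 were at least 2-fold lower in stromal-like cells, a share near the 25.5% of all 7587 genes, and 0 at least 2-fold higher, where 10.8% were. The 2 were Fosb (log2 ratio -1.58, -1.89 to -1.28) and Jund (-1.16, -1.44 to -0.89). Jun was lower by less (-0.91, -1.11 to -0.72), and Junb (0.46, 0.17 to 0.75) and Ier2 (0.38, 0.21 to 0.56) were somewhat higher in stromal-like cells. The summed members were at 1276 CPM in stromal-like and 1701 CPM in Sertoli-like cells, a log2 ratio of -0.41 (-0.49 to -0.34), and the median over all genes was -0.39. With under 5% mitochondrial UMIs in place of 10% the summed ratio was -1.58, with 82 stromal-like and 54 Sertoli-like cells. Junb and Ier2 were then lower in stromal-like cells (-1.16 and -0.64). In that setting a cluster of 118 cells that scored highest for stromal markers, with Hbb-bs as its leading gene, went unnamed. It was left out of the class, so these shifts cannot be read as an effect of the mitochondrial limit alone.

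Peritubular myoid-like cells had the highest sum of any class, 3056 CPM, against 1701 CPM in Sertoli-like cells (log2 ratio 0.85, 0.77 to 0.92). Of 8 members, 3 were at least 2-fold higher, where 8.75% of all 6717 genes were, and 2 at least 2-fold lower, where 30.8% were, the median over all genes being -0.52. Junb (2.52, 2.27 to 2.78), Btg2 (2.52, 2.27 to 2.77) and Ier2 (1.65, 1.48 to 1.82) were the higher ones, Fosb (-1.21, -1.61 to -0.83) and Jund (-1.19, -1.59 to -0.81) the lower. Jun (0.00, -0.21 to 0.21) and Fos (0.13, -0.08 to 0.34) did not differ beyond counting error. Btg2 and Junb also separated peritubular myoid-like from stromal-like cells, with log2 ratios of stromal-like over peritubular myoid-like cells of -3.04 (-3.37 to -2.72) and -2.06 (-2.32 to -1.81). The classes of the somatic compartment thus differed in which members were high: Fos and Atf3 in macrophage-like, Fosb and Jund in Sertoli-like, and Junb, Btg2, Ier2 and Egr1 in peritubular myoid-like cells. Of these, Fos, Fosb, Junb, Ier2 and Btg2 had taken part in the clustering of all cells, so their differences describe classes formed in part from them.

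Sertoli-like cells were made of 3 clusters, and the one with Arhgef39 as its leading gene, with 45 cells, was higher than the largest, with 132 cells, for several members. The log2 ratios were 0.89 (0.63 to 1.14) for Jun, 0.93 (0.45 to 1.41) for Btg2, 0.73 (0.47 to 0.999) for Fos and 0.70 (0.37 to 1.02) for Fosb, while Ier2 gave 0.02 (-0.31 to 0.34). Atf3 had 11 UMIs in the former and 3 in the latter. The median depth of the 45-cell cluster was also higher, 10445 against 8253 UMIs per cell. The third cluster, with 78 cells and a median depth of 7907, was also above the largest for Jun (0.66, 0.42 to 0.90) and Fos (0.46, 0.21 to 0.72). Its intervals for Fosb, Btg2 and Ier2 included 0. The part of depth in these differences was not tested.

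Single cells of a class spread widely in the sum of the 10 members per 10000 UMIs. The median was 29.6 in peritubular myoid-like, 16.0 in macrophage-like, 14.5 in Sertoli-like, 5.89 in stromal-like, 5.64 in progenitor-like, 4.38 in SSC-like, 4.35 in unnamed and 1.63 in differentiating-like cells. In stromal-like cells 80% lay between 0.780 and 35.9, with a highest cell of 88.1, and their median lay near that of progenitor-like cells although their pooled level was above. These 2 sums were made of different genes. Egr4 held 551 of the 918 member UMIs of progenitor-like cells and 2 of the 2094 of stromal-like cells. The same range ran from 6.13 to 65.8 in peritubular myoid-like, from 3.97 to 32.5 in Sertoli-like and from 2.05 to 9.07 in SSC-like cells. No UMI of any member was counted in 24.8% of differentiating-like, 9.14% of stromal-like and 0.893% of SSC-like cells. After thinning to 5000 UMIs the medians were 32, 14, 6, 6, 4 and 2 per 10000 for the peritubular myoid-like, Sertoli-like, stromal-like, progenitor-like, SSC-like and differentiating-like classes.

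**Figure D4:**
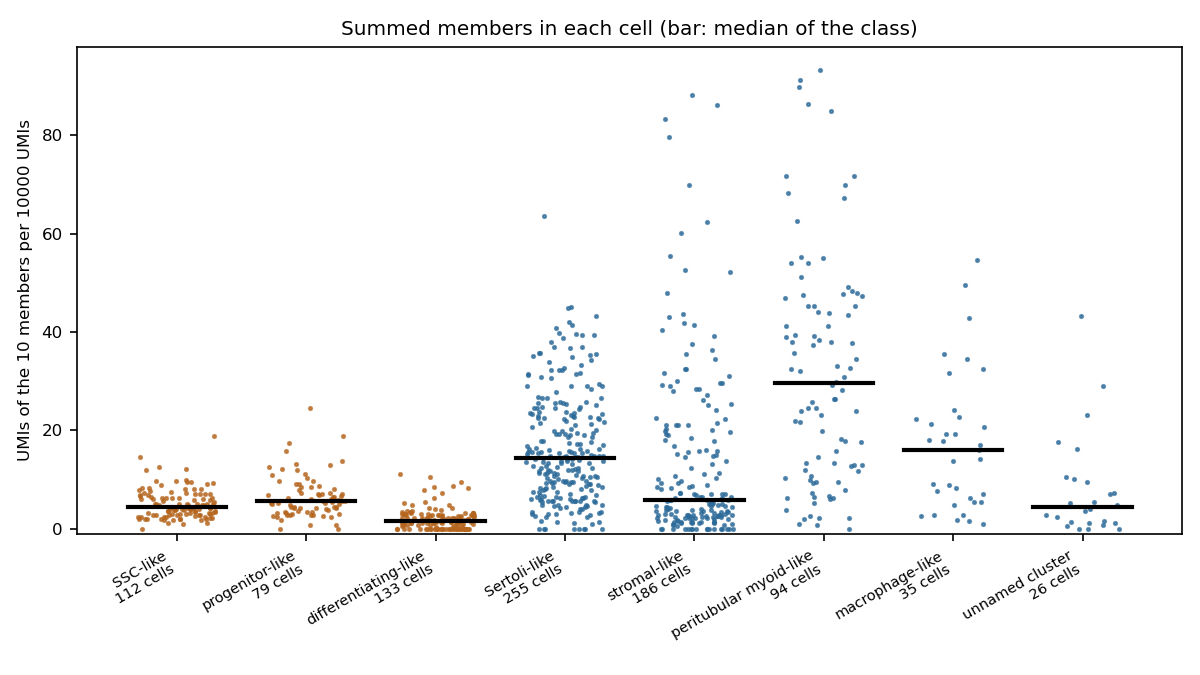
UMIs of the 10 members per 10000 UMIs in each cell (y axis), by class (x axis; brown, germ; blue, somatic), 1 point per cell with the median of the class as a bar. Stromal-like cells range from 0 to 88.1 around a median of 5.89, and SSC-like cells from 0 to 18.9 around a median of 4.38. The sum in germ cells is to a large part Egr4.

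Members varied together from cell to cell within somatic classes. With class means removed and log-normalized values, Pearson's r of Fos and Fosb across the 596 somatic cells was 0.55, of Fos and Egr1 0.47, of Fos and Jun 0.46 and of Fos and Junb 0.45. Over the 21 pairs of Fos, Fosb, Jun, Junb, Ier2, Btg2 and Egr1 the median r was 0.35 in somatic cells (0.30 thinned), 0.47 in stromal-like (0.39 thinned) and 0.42 in peritubular myoid-like cells (0.38 thinned). In the 324 germ cells it was 0.06, and 0.00 when thinned. Jund took less part, with r from 0.08 to 0.24 with these 7 genes in somatic cells. In germ cells the highest values were 0.20 for Jund with Egr4 and 0.17 for Egr4 with Ier2. These cells come from 1 library, and sparse counts lower r where levels are low, as those of Fos, Fosb, Jun and Junb are in germ cells.

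**Figure D5:**
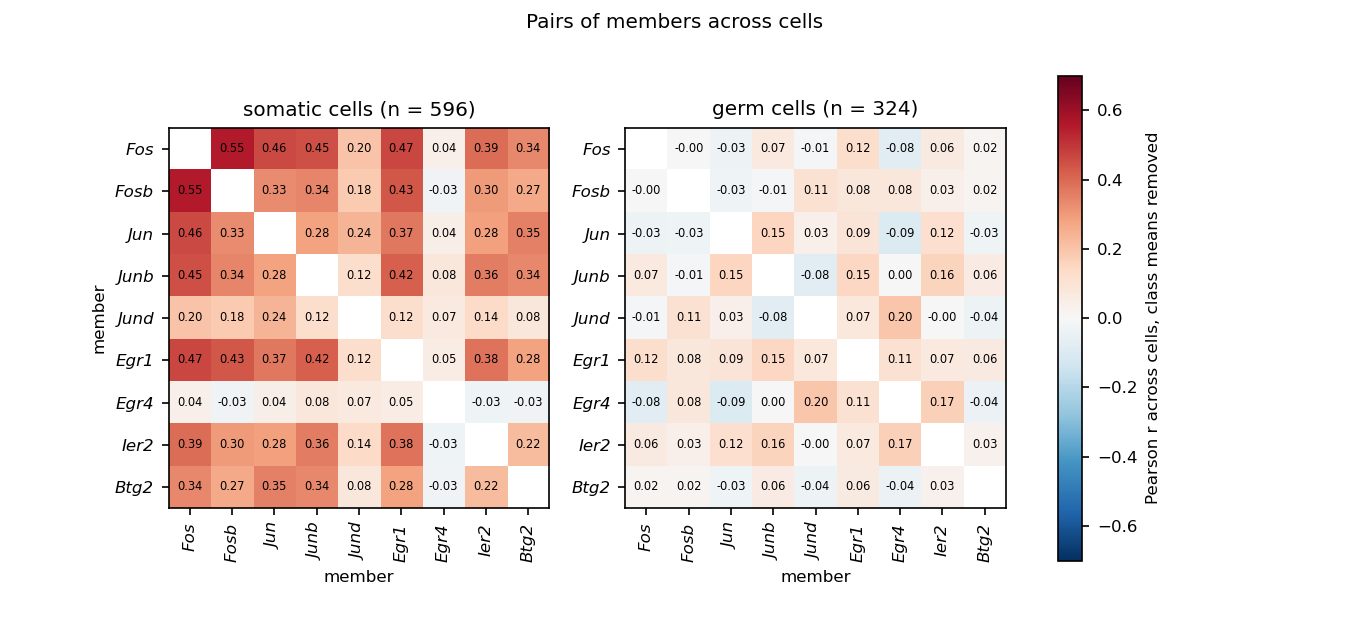
Pearson's r (colour and printed value) across cells between pairs of members (both axes), with class means removed, in somatic cells (left) and germ cells (right), Atf3 left out for its low count. Pairs among Fos, Fosb, Jun, Junb, Egr1, Ier2 and Btg2 lie between 0.22 and 0.55 in somatic cells and between -0.03 and 0.16 in germ cells.

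Across the 920 kept cells, the mean level of the members was followed most closely, of 8735 genes, by Cyr61 (r = 0.29), Zfp36 (0.27), Rhob (0.23) and Hes1 (0.22), then by Pabpc1, Set, Malat1, Dusp1, Tlk1 and Zfp36l1 (0.15 to 0.16). Of these 10, 5 belong to a list of 32 other immediate early genes (Cyr61, Zfp36, Rhob, Dusp1 and Zfp36l1). ZFP36 degrades AU-rich messenger RNAs and DUSP1 removes the activating phosphates of MAP kinases. In germ cells alone the closest were Pygb (0.27), Sapcd2, Zmym3, Tmem160 and Pim1 (0.25), and after thinning these fell to between 0.04 and 0.19, with Pim1 the highest. Cell by cell, the score of the members went with that of the other immediate early genes (r = 0.42 over 920 cells, 0.58 in Sertoli-like, 0.38 in stromal-like and 0.22 in germ cells). With the heat shock genes r was -0.09 over all cells, -0.25 in stromal-like and 0.26 in progenitor-like cells, and with the growth factor feedback genes it was 0.04 over all cells. With the log of UMIs per cell it was 0.04 over all cells, 0.26 in Sertoli-like and 0.25 in SSC-like cells, and with the mitochondrial share 0.03 over all cells and 0.22 in SSC-like cells. After thinning, r with the other immediate early genes was 0.37 over 827 cells, 0.40 in Sertoli-like, 0.39 in stromal-like and 0.17 in germ cells. Thinned values with the heat shock genes were -0.10 over the 827 cells, -0.26 in stromal-like and 0.08 in progenitor-like cells. For the log of UMIs per cell they were -0.04, 0.16 in Sertoli-like and 0.08 in SSC-like cells. For the mitochondrial share they were -0.02 over the 827 cells and 0.04 in SSC-like cells. The part of depth and of the mitochondrial share in the score was not tested.

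The other immediate early genes divided between the compartments in part as the members did. Of 25 tested, 13 were at least 2-fold higher in somatic cells (all genes: 26.7%) and 3 at least 2-fold lower (all genes: 24.0%). Their median log2 ratio was 1.24, against -0.07 over all genes. Cyr61, a secreted matrix protein, was at 158 CPM in somatic and 1.62 in germ cells (6.61, 5.68 to 7.74), and Nfkbia, the inhibitor of NF-kB, at 135 and 8.28 (4.03, 3.60 to 4.49). Egr2, another EGR family gene, was on the germ side like Egr4. It had 2 UMIs in somatic and 111 in germ cells, with 32.3 CPM (25.6 to 40.3) for the SSC-like class, 20.7 (14 to 29.6) for the progenitor-like class and 2 UMIs in differentiating-like cells. Klf10 (-1.40, -1.77 to -1.04) and Ppp1r15a (-1.10, -1.46 to -0.74) were the others on the germ side. Among other AP-1 and ATF family genes, Maf (7.22) and Atf5 (1.81) were at least 2-fold higher in somatic cells and 0 of 12 at least 2-fold lower. Of 18 upstream factors and kinases 2 were higher, Mapk3 (1.14) among them, and 1 lower, Rps6ka1 (-1.16). The shares of all genes are those given above for this comparison.

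The heat shock genes, often raised in dissociated tissue, were mixed in direction between compartments. Of 12 tested, 2 were at least 2-fold higher in somatic cells (all genes: 26.7%), Hspb1 (4.45, 4.13 to 4.78) and Hspa1a (2.08, 1.43 to 2.79). Another 4 were at least 2-fold lower (all genes: 24.0%), Hsp90aa1 (-2.43), Hspe1 (-1.66), Hsph1 (-1.49) and Dnaja1 (-1.13). The median was -0.61, against -0.07 over all genes. Between Sertoli-like and stromal-like cells Hspb1 was lower in the latter by a log2 ratio of -5.14 (-5.69 to -4.64). In the comparison of differentiating-like with undifferentiated cells 0 of 11 passed 2-fold in either direction (all genes: 5.65% higher, 7.65% lower). The part of dissociation in the levels of the members was not tested.

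The genes of growth factor feedback were mixed between compartments and differed between germ stages. In somatic over germ cells 3 of 12 were at least 2-fold higher (all genes: 26.7%) and 5 at least 2-fold lower (all genes: 24.0%). In peritubular myoid-like over Sertoli-like cells 2 of 4 were higher (all genes: 8.75%) and 0 lower (all genes: 30.8%). Of 9 tested, 8 were at least 2-fold lower in differentiating-like than in undifferentiated cells (all genes: 7.65%). The median log2 ratio was -3.36, against 0.10 over all genes. Among the 8 were Dusp6 (-3.94, -5.84 to -2.56), a phosphatase of ERK, Etv4 (-2.80, -3.77 to -1.96), a target of FGF and GDNF signals, and Phlda1 (-4.00, -6.30 to -2.41). Of 9 tested between SSC-like and progenitor-like cells, 7 were at least 2-fold higher in SSC-like cells (all genes: 4.11%). The median was 1.33 against 0.07 over all genes. Among the 7 were Dusp6 (1.56, 0.92 to 2.26), Phlda1 (1.53, 0.81 to 2.33) and Etv4 (1.15, 0.65 to 1.69). Etv5 and Bcl6b are on this list and are also markers from which the SSC-like class was named, so their direction is no independent evidence. The counts and medians of both germ stage comparisons include them. The median of -3.36 is the ratio of Bcl6b itself, and that of 1.33 is the ratio of Etv5. No alternative left the feedback genes out of the clustering, so these counts only describe the classes as they were formed. Egr4 and this list were thus both low in differentiating-like cells, but between SSC-like and progenitor-like cells Egr4 was higher in the latter and the feedback genes in the former. The part of growth factor signals in either was not tested.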

How the data were processed

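Single-cell RNA-seq of 1 wild-type library on the 10x Chromium platform (v2 chemistry) was analysed. The authors aligned the reads to mm10 (GRCm38) with Cell Ranger 2.1.0, as named in the submitters' processing notes, and deposited UMI counts per gene and barcode without normalization. Here, barcodes were dropped for fewer than 500 genes (10 of 970), for a mitochondrial share of 10% or more (36) or as doublets found with scrublet in scanpy 1.11.5 at an expected rate of 0.01 (4). In Seurat 5.3.0 (R 4.3.3), genes in fewer than 3 cells were left out, counts were scaled to 10000 per cell and logged, mean.var.plot picked the variable genes, and 14 principal components went into clustering at resolution 0.5, first of all cells and then of germ cells. Clusters were named from marker lists by the highest mean difference in log-normalized level between the cluster and the other cells, with at least 3 markers found in 10% of the cells. A cluster went unnamed where another list had more markers among its top 10 genes. It also went unnamed where its depth was far below that of the other cells and its top 10 held none of its own markers.

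UMIs were summed per class and scaled to 1000000. Levels have exact Poisson intervals, ratios exact conditional binomial and shares exact binomial intervals at 95%, from scipy 1.17.1. UMIs remove amplification copies, but these intervals cover counting error only, not differences between animals. A gene was compared when both classes together held at least 50 UMIs, and counted at a 2-fold difference. A count of 0 was set to a limit of 3 counts. Cells were thinned to 5000 UMIs for shares, leaving out 93 of 920 cells, 45 of them germ cells. Gene positions are from GENCODE vM21, on GRCm38, and promoters from RefSeq. Named genes are all members, listed genes past 2-fold with at least 100 UMIs, the 10 genes with the highest r to the members over all kept cells and the 5 in germ cells. Sub-clusters, the low-depth cluster and single pairs were described after their values were seen. The members, lists and comparisons were chosen with earlier results of these data known. On simulated counts for somatic over germ cells with 200 of 27998 genes changed, 100% of the changed genes were called in the right direction and 95.0% of their intervals held the true ratio. Those counts had Poisson error only, as the intervals assume, and the changed genes lay well above the 50 UMI limit with changes larger than 2-fold. The simulation thus checked the calculation only, not genes near the limits or variation between cells. Filters, variable genes, resolution, germ cell selection, denominator, weighting of cells, depth and single cells were varied in 15 alternatives, and 4 more were added after the data were seen. The mixture of selected and unselected cells and the pooling of animals were fixed before sequencing. The result of 1 listed gene is not reported here.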

Additional observations from a re-analysis of the deposited data

How the results depend on the processing

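No paired analysis was possible because the data hold a single library. The log2 ratio of the summed members, somatic over germ cells (1.90), was 2.62 under 5% mitochondrial UMIs, 2.13 at resolution 1.2, 1.47 with germ cells taken by a UMI of Ddx4 or Dazl, 1.83 without mitochondrial and ribosomal protein genes in the denominator, 2.07 as a mean over cells, 2.0 thinned and 2.85 without Egr4. For differentiating-like over undifferentiated cells (-1.50) it was -1.80 thinned and -0.80 without Egr4. For SSC-like over progenitor-like cells (-0.28) it was -0.43 with no mitochondrial limit, and it changed sign to 0.12 at resolution 1.2, 0.060 with the Ddx4 or Dazl selection and 0.14 without Egr4. For stromal-like over Sertoli-like cells (-0.41) it was -1.58 under 5% mitochondrial UMIs, -0.28 with the other denominator and -0.25 as a mean over cells, and for peritubular myoid-like over Sertoli-like cells (0.85) it was 0.71, 0.999 and 0.96 in that order, 0.50 with vst variable genes, 0.92 with the Ddx4 or Dazl selection and 0.96 thinned. Counts of members past 2-fold moved from 2 to 7 lower in stromal-like and from 2 to 1 lower in peritubular myoid-like cells under 5% mitochondrial UMIs, the latter also when thinned. They moved from 0 to 1 higher in SSC-like cells with no mitochondrial limit, and with the Ddx4 or Dazl selection from 0 to 3 higher in SSC-like and from 3 to 5 lower in differentiating-like cells. That selection put 410 cells, some from somatic clusters, among the germ cells. Its SSC-like cluster was led by C1qb, Lyz2 and Tyrobp. For the settings in which counts moved, the share of all genes past 2-fold was not computed. These counts therefore cannot be set beside it and are not read as a result about the members. Under 5% mitochondrial UMIs, a cluster of 118 cells that scored highest for stromal markers went unnamed and was left out of the somatic classes. That limit also kept only 67 of the 324 germ cells, with a median of 5316 UMIs. The median mitochondrial share of undifferentiated cells, 7.10%, lies above it. The germ group behind the ratio of 2.62 is therefore not the one reported above. With vst variable genes the peritubular myoid-like class held 133 cells in place of 94, and the unnamed cluster was not formed. With no mitochondrial limit, a cluster of 62 cells that scored highest for germ cell markers, led by Hbb-bs, went unnamed and 284 germ cells remained. At resolution 1.2 a cluster of 84 cells went unnamed and 240 germ cells remained. Apart from these construction effects the cause of each move was not tested.

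Of 505 values of single members' ratios under the alternatives, 459 stayed inside the interval reported and 43 moved outside it in the same direction or without one. The other 3 changed sign for stromal-like over Sertoli-like cells, Junb (-1.16) and Ier2 (-0.64) under 5% mitochondrial UMIs and Fos (0.043) as a mean over cells. Egr4 kept its direction in every alternative run for somatic over germ cells (-8.25 to -6.90). Of 890 levels, 821 stayed inside their intervals. The classes SSC-like and progenitor-like were not formed under 5% mitochondrial UMIs or at resolution 0.3, so those alternatives gave no value for them. Low counts limit Atf3 throughout and Fosb and Junb in germ cells, and 1 pooled library gives no measure of the spread between animals.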

Other observations

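The unnamed cluster of 26 cells had Fos at 90.9 CPM and Jun at 66.6 CPM, each the lowest of the somatic classes, and Junb at 212 CPM, second to peritubular myoid-like cells. A single cell held 8 of its 15 Fos UMIs and a single cell 8 of its 11 Jun UMIs. For Junb a single cell held 12 of its 35 UMIs, and the level without that cell was 144 CPM.

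In stromal-like cells alone, looked at after their wide spread was seen, the genes closest to the mean level of the members were Zfp36 (r = 0.35 over 186 cells), Rps27 (0.32), Rps19 (0.30), Rpl27a (0.29) and Dusp1 (0.29), and thinned to 5000 UMIs the r of Zfp36 was 0.38 and that of Rps27 0.37. Of their 103 Btg2 UMIs 79.6%, and of their 198 Junb UMIs 71.7%, lay in the tenth of the cells with the most, against 32.2% and 39.7% in peritubular myoid-like cells.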
